A study of Mus musculus with 6 samples.

Results

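The genes described here are 10 members of the machinery that carries and limits the tumour necrosis factor (TNF) signal: the adaptors Traf1, Traf2, Traf3, Traf5, Traf6 and Tradd, the feedback inhibitor Tnfaip3, which encodes A20, its binding partners Tnip1 and Tnip3, and the TNF-induced gene Tnfaip2. They were picked by name, and all 10 were found among the 21674 named genes of the deposited RSEM tables. The cells were mouse aortic cells labelled endothelial, immortalised with a doxycycline-driven SV40 gene (TetOn_SV40) and moved to medium without doxycycline before the experiment. There were 3 lines: the parental line (WT), a single cell CRISPR clone lacking the splicing repressor Ptbp1 (KO), and that clone given a human PTBP1 cDNA (Rescue). Every line was sequenced once untreated and once after TNF at 30 ng/mL, so 6 groups held 1 library each and there were no replicates. KO is 1 clone, and Rescue was made from it, so a difference that both show against WT can be a property of that clone or an effect the cDNA did not undo, and these cannot be told apart.

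The names of the deposited files and the labels of the samples disagreed for 4 of the 6 libraries. Groups here are those that the names of the files give, where "basal" was taken as WT. On that reading, WT with TNF carries the label KO, untreated KO the label Rescue, KO with TNF the label WT_TNF, and untreated Rescue the label KO_TNF. Untreated WT and Rescue with TNF carry matching labels. Ptbp2, a paralogue that Ptbp1 normally keeps low, was at 22.8 and 20.7 TPM (RSEM transcript abundance, a level per length) in the libraries named WT, at 128 and 106 TPM in those named KO, and at 42.2 and 45.3 TPM in those named Rescue, without and with TNF. Ccl2, a chemokine gene that TNF induces, stood at 149, 105 and 169 TPM in the libraries named untreated WT, KO and Rescue, and at 6017, 1138 and 5202 TPM in those named TNF. Both genes thus followed the file names and went against the labels. Ptbp1 itself did not set KO apart from WT: its level was 236 and 270 TPM in WT, 266 and 275 TPM in KO and 127 and 129 TPM in Rescue. The libraries named Rescue were the lowest, and the labels divide them between KO_TNF and Rescue_TNF. The sources used here do not say where the deletion lies. Library totals ran from 19582761 to 21609245 expected counts. Few endothelial markers were detected: of 12 endothelial genes only 2 to 4 reached 1 CPM (counts scaled to library size) in any library. Their summed level was 260.2 to 382.1 CPM, and Cldn5 was at 0 throughout. Of 10 smooth muscle and fibroblast genes, 7 to 10 reached 1 CPM, with a summed level of 7310 to 17016 CPM. Of 6 blood cell markers 2 to 3 reached 1 CPM (summed level 10.5 to 16.7 CPM), with Ptprc and Cd3e at 0 in all 6 libraries.

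When TNF binds its receptor, Tradd is recruited and brings in Traf2, on which ubiquitin ligases build the chains that activate the kinases upstream of NF-kB. NF-kB then switches on the genes for its own brakes: A20 edits and removes ubiquitin chains, and the Tnip proteins bind ubiquitin and A20 and hold the same signal down. Traf1 partners Traf2 and is itself an NF-kB target, Traf3 restrains the non-canonical NF-kB branch, Traf5 overlaps with Traf2 in function, and Traf6 serves the interleukin-1 and Toll-like receptors rather than the TNF receptor.

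Promoters of 5 of the members that TNF raised are shown because they hold letters that NF-kB reads. RefSeq promoters on GRCm38.p6 (250 bases before to 50 bases after the start) were searched on both strands for the 10-base NF-kB consensus, counting overlapping matches separately. Of 32851 promoters of this length, 2779 (8.46%) held it. 10 promoters of 9 members were found, and 5 of them, 1 each for Tnip3, Tnfaip3, Tnip1, Traf3 and Tnfaip2, held a match. Promoters of Traf1, Traf2, Traf5 and Traf6 and the second promoter of Tnfaip3 held none. A match describes letters only and says nothing about binding. In the lines that follow, 5′ to 3′ along each gene, capitals mark the matches.
Tnip1 (chr11:54962941-54963190, minus strand): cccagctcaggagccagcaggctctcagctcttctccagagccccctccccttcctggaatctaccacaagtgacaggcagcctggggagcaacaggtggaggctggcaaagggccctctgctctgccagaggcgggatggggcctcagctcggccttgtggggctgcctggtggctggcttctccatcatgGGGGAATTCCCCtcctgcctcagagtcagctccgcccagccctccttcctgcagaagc
Tnip3 (chr6:65590148-65590397, plus strand): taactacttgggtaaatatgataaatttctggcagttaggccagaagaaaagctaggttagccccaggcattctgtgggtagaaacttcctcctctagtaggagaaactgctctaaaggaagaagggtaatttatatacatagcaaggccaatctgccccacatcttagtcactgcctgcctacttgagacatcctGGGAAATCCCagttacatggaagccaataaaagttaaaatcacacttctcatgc
Tnfaip3 (chr10:19015411-19015545, minus strand): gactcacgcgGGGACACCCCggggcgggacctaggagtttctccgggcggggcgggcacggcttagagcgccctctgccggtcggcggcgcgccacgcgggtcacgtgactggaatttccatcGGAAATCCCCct
Traf3 (chr12:111166350-111166369, plus strand): ggcggcccgcGGGGATTTCC
Tnfaip2 (chr12:111442627-111442656, plus strand): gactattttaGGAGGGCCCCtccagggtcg
The Tnip1 block is palindromic and contains 3 overlapping matches, at 58, 57 and 56 bases before the start, and 0.19% of all promoters hold 3 or more. Tnfaip3 has matches 125 and 12 bases before its start, and 1.22% of all promoters hold 2 or more. The matches of Tnip3, Tnfaip2 and Traf3 begin 54, 24 and 10 bases before the start.

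TNF raised 6 of the 10 genes over the 3 lines: Traf1, Traf3, Tnfaip3, Tnip1, Tnip3 and Tnfaip2, and lowered none. The other adaptors, Traf2, Traf5, Traf6 and Tradd, did not pass the test. The test was edgeR's quasi-likelihood test in an additive model of line and TNF, with Benjamini-Hochberg adjusted p under 0.05 over 12728 genes. With 1 library per group the error comes from how much an effect varied from line to line, not from replicate cultures, and the ± value of a fold change restates the F statistic. Among all genes tested, 11.2% were called higher with TNF and 10.8% lower. The median log2 fold change of the members was 1.32, against -0.01 over all genes. In these bulk libraries fewer cells of a kind and less RNA per cell cannot be told apart.

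**Figure D1:**
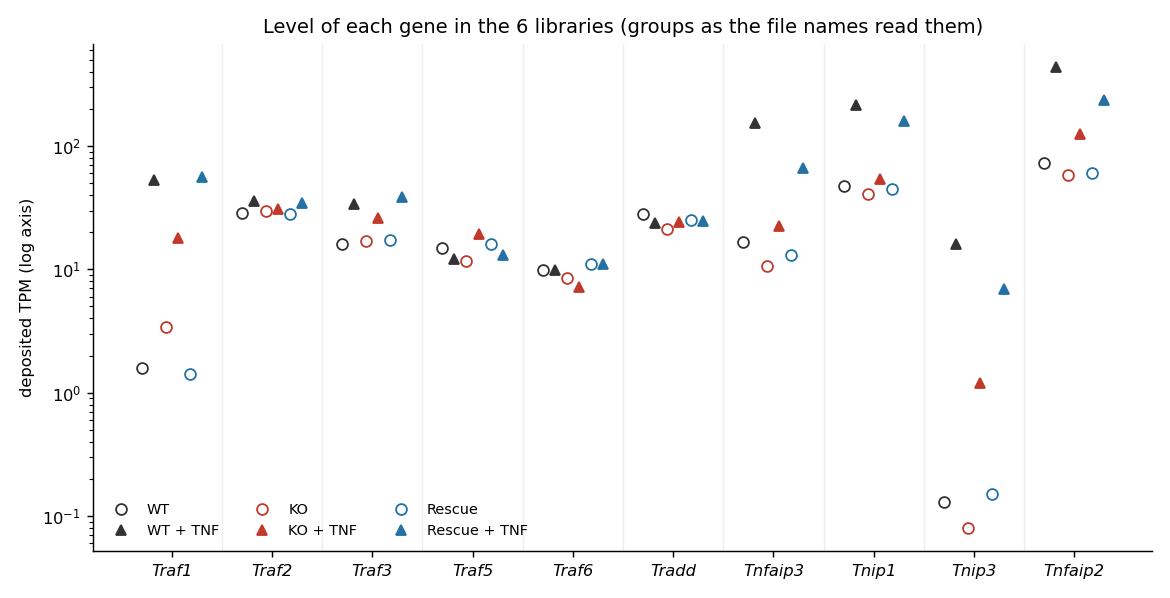
Deposited TPM (log axis) of the 10 genes in each of the 6 libraries, open circles untreated and filled triangles with TNF, coloured by line as the file names read it. For Traf1, Traf2, Traf3, Tnfaip3, Tnip1, Tnip3 and Tnfaip2 every TNF library lies above every untreated one, with KO the lowest of the TNF libraries. Of these genes, Traf2 was not called. The share of all genes that separate in this way was not counted.

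Traf1 (chr2:34941750-34961772, minus strand, GRCm38) was almost silent without TNF, at 1.58 TPM in WT, 3.44 in KO and 1.41 in Rescue. With TNF it reached 53.5 TPM in WT, 17.9 in KO and 56.0 in Rescue. WT and Rescue thus ended at the same level within counting error, and KO with TNF lay between the untreated and the other treated libraries. The TNF effect was 4.26 ± 0.62 on the log2 scale (edgeR adjusted p = 0.0164).

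Traf3 (chr12:111166370-111267153, plus strand) had a moderate level in untreated cells, 16.0 TPM in WT, 16.9 in KO and 17.2 in Rescue. TNF brought it to 34.2, 25.9 and 38.6 TPM in the same order. No untreated library overlapped a treated one, a separation whose share over all genes was not counted. The TNF effect was 1.05 ± 0.13 (log2, edgeR adjusted p = 0.0116).

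Tnfaip3 (chr10:19000910-19015657, minus strand), the A20 gene, was at 16.8, 10.6 and 13.1 TPM in untreated WT, KO and Rescue and at 153, 22.6 and 66.5 TPM with TNF. The treated KO library was closer to the untreated libraries than to either other treated one. The TNF effect was 2.32 ± 0.42 (log2, edgeR adjusted p = 0.0245).

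Tnip1 (chr11:54910785-54962917, minus strand), which encodes ABIN1, was already well expressed, at 47.7, 41.0 and 44.5 TPM in untreated WT, KO and Rescue. With TNF it was at 216, 54.3 and 160 TPM. The KO level with TNF was only slightly above the untreated range. Over the lines the TNF effect was 1.59 ± 0.37 (log2, edgeR adjusted p = 0.0409).

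Tnip3 (chr6:65525313-65634040, plus strand), which encodes ABIN3, was barely detected without TNF, with 5, 3 and 6 counts in WT, KO and Rescue. With TNF it rose to 692, 48 and 268 counts, or 16.1, 1.19 and 6.96 TPM. Its TNF effect was the widest of the 10, 6.02 ± 0.40 (log2, edgeR adjusted p = 0.00736), and rests on untreated counts near the detection floor.

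Tnfaip2 (chr12:111442469-111455018, plus strand), a TNF-inducible gene of the exocyst-related family, was at 73.0, 58.7 and 60.1 TPM in untreated WT, KO and Rescue and at 438, 125 and 236 TPM with TNF. It was the most abundant of the 10 per length in every library. The TNF effect was 1.98 ± 0.30 (log2, edgeR adjusted p = 0.0178). An opposite-strand gene, Gm40578, overlaps an exon of Tnfaip2, and the sources used here do not say whether counting used strand.

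The adaptors Traf2, Tradd and Traf6 moved little. Traf2 (chr2:25517982-25546940, minus strand) was at 28.7, 29.5 and 27.9 TPM in untreated WT, KO and Rescue and at 35.6, 30.7 and 34.6 TPM with TNF, a log2 difference of 0.32 ± 0.08 that just missed the threshold (edgeR adjusted p = 0.0506). By edgeR it was called in the second deposited quantification of the same libraries (adjusted p = 0.0464) and without a filter on low counts (adjusted p = 0.0482). It was not called with RLE size factors (edgeR adjusted p = 0.0533) or by DESeq2 (adjusted p = 0.0651). With a library left out, the log2 difference was 0.4 without untreated KO and 0.41 without KO with TNF. It was 0.26 without either WT library and 0.29 without either Rescue library. Tradd (chr8:105258286-105264609, minus strand) stayed between 21.1 and 27.9 TPM and Traf6 (chr2:101678429-101701669, plus strand) between 7.23 and 11.04 TPM over the 6 libraries. Their log2 differences with TNF were 0.07 ± 0.11 (edgeR adjusted p = 0.669) and 0.01 ± 0.09 (edgeR adjusted p = 0.933).

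Traf5 (chr1:191997205-192092559, minus strand) differed in direction between the lines. It was at 14.9 TPM in WT, 11.7 in KO and 16.1 in Rescue without TNF, and at 12.2, 19.3 and 13.2 TPM with it. KO thus held the lowest untreated and the highest treated level. Over the lines the log2 difference was 0.14 ± 0.23 (edgeR adjusted p = 0.68). Gm26879 overlaps an exon of Traf5 on the opposite strand.

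These calls rested on the file-name groups and changed with the libraries in the fit. Without either Rescue library, the only residual left was the difference between the TNF responses of WT and KO. The loss of calls there therefore does not show that the TNF effect came from Rescue. With the labels' groups no member passed the TNF test and no gene at all did (0 of 12728 by edgeR, 491 at an unadjusted p under 0.05). Without untreated Rescue, or without Rescue with TNF, 0 of the 10 members passed and 3 genes were called in all, while the log2 values of the 6 members stayed between 0.96 and 6.23. Without WT with TNF, Traf1, Tnfaip3 and Tnip1 no longer passed (3 of 10 called), without untreated WT Tnip1 did not (5 of 10), and in the second quantification Tnip1 did not (adjusted p = 0.0532). Summed smooth muscle and fibroblast markers were lower in each TNF library (7310 to 9554 CPM) than in its untreated partner (13073 to 17016 CPM). Most of that sum was Col1a1, at 14868, 11092 and 13341 CPM in untreated WT, KO and Rescue and 7854, 7271 and 6183 CPM with TNF. Acta2 and Tagln were also lower with TNF in each line. The part of these markers in the result was not tested.

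Within each line the size of the response could be read only from 1 library against 1, without a test, as log2 ratios of CPM with a prior count of 2 and 95% counting intervals. At least 2-fold higher with TNF were 6 of 10 members in WT (5.74% of all genes), 4 in KO (2.73%) and 6 in Rescue (4.42%). The median log2 ratio of the members was 1.76 in WT, 0.75 in KO and 1.58 in Rescue. The 4 members past 2-fold in KO were Traf1, Tnip3, Tnfaip3 and Tnfaip2.

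**Figure D2:**
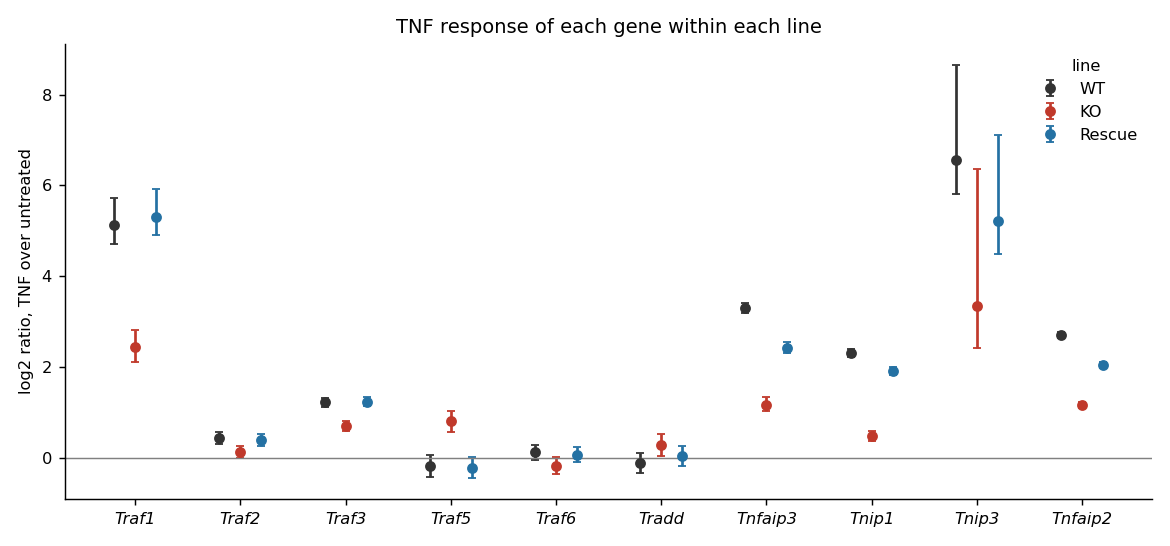
Log2 ratio of TNF over untreated CPM for each gene in WT, KO and Rescue, with bars for the 95% interval of counting error only. In KO the ratios of Traf1 (2.43), Tnfaip3 (1.17), Tnip1 (0.49) and Tnfaip2 (1.17) lie below those of both other lines. So do those of Traf2 (0.13), Traf3 (0.7), Traf6 (-0.17) and Tnip3 (3.35). The KO ratios of Traf5 (0.80) and Tradd (0.28) lie above both. For Traf2, Traf6, Tnip3 and Tradd the KO interval overlaps that of another line.

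The TNF response of 4 of the 10 genes, Traf1, Tnfaip3, Tnip1 and Tnfaip2, was smaller in KO than in the other lines. This was tested with a term for TNF in KO only, against the response of WT and Rescue as one, which leaves 1 residual degree of freedom, the difference between WT and Rescue. Of 13146 genes, 0.51% had a higher and 1.2% a lower response in KO. The median of this term over the members was -0.88 on the log2 scale, against 0.01 over all genes. The model was known from earlier results of these data.

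Traf1 was raised 34.95-fold in WT (26.4 to 53.1), 5.38-fold in KO (4.32 to 7.06) and 39.5-fold in Rescue (29.9 to 60.8). The KO response was lower by -2.84 ± 0.25 (log2, edgeR adjusted p = 0.00157). Part of the gap came from the untreated level, which in KO was 2.15-fold that of WT (1.47 to 3.39), and part from the treated one, which was 0.331 of WT (0.295 to 0.368).

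Tnip1 was raised 4.93-fold in WT (4.65 to 5.24), 1.40-fold in KO (1.30 to 1.51) and 3.78-fold in Rescue (3.56 to 4.02). Its KO term was -1.63 ± 0.18 (log2, edgeR adjusted p = 0.00458). Untreated Tnip1 in KO was 0.877 of WT (0.809 to 0.949), so the gap lay in the treated libraries, where KO was at 0.249 of WT.

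Tnfaip3 was raised 9.90-fold in WT, 2.25-fold in KO and 5.34-fold in Rescue, with a KO term of -1.70 ± 0.31 (log2, edgeR adjusted p = 0.0334). For Tnfaip2 the folds were 6.55, 2.24 and 4.14 and the KO term was -1.22 ± 0.24 (log2, edgeR adjusted p = 0.0454). Neither response in Rescue reached that of WT.

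The other KO terms did not pass. Tnip3 had a term of -2.39 ± 1.15 (log2, edgeR adjusted p = 0.547), and its fold in KO, 10.2, carried an interval from 5.31 to 82.6 because only 3 counts lay below it. Traf3 had a term of -0.53 ± 0.14 (adjusted p = 0.138), with folds of 2.33, 1.62 and 2.36 in WT, KO and Rescue. Traf5 had the one large positive term, 1.00 ± 0.23 (adjusted p = 0.0753): it was 1.74-fold higher with TNF in KO (1.48 to 2.06) and 0.888-fold and 0.861-fold in WT and Rescue. Terms of Traf2, Traf6 and Tradd were -0.28, -0.27 and 0.32, with edgeR adjusted p from 0.659 to 0.779.

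How firmly these 4 calls stand depended on the counts used. DESeq2 called the same 4, edgeR with RLE size factors called 2 (Traf1 and Tnip1), and the second quantification called 1 (Traf1, adjusted p = 0.0223). With the labels' groups 0 of 10 passed in edgeR, 6 at an unadjusted p under 0.05. No library could be left out of this model, because no residual degree of freedom would remain.

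Between lines, over both treatments, Tnip3 was the one member that passed. It was lower in KO than in WT by -3.52 ± 0.44 (log2, edgeR adjusted p = 0.00712) and higher in Rescue than in KO by 2.36 ± 0.45 (adjusted p = 0.0292). Among all genes, 16.8% were called higher and 16.2% lower in KO than in WT, and 9.79% higher and 10.6% lower in Rescue than in KO, so 1 of 10 members was near or below the background share. Because its untreated counts were 5, 3 and 6, the difference lay in the TNF libraries.

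For the other members the KO against WT differences did not pass, among them Tnfaip3 (-1.73 ± 0.51, edgeR adjusted p = 0.0547), Tnfaip2 (-1.06 ± 0.36, adjusted p = 0.0794) and Traf6 (-0.32 ± 0.11, adjusted p = 0.0757). Traf6 in Rescue against KO was 0.39 ± 0.11 (adjusted p = 0.0624). The additive model takes a line difference as equal with and without TNF, which these genes did not show. Without untreated KO, the KO line rested on KO with TNF alone, so that fit does not show a line difference over both treatments. The median log2 difference of the members was then -1.03 in KO against WT and 0.76 in Rescue against KO. With all libraries these medians were -0.45 and 0.36. For KO against WT the median was -0.77 without untreated WT and -0.31 without KO with TNF, where WT or KO likewise rested on a single library. Tnip3 lost its KO against WT call without WT with TNF (adjusted p = 0.235), KO with TNF (0.292), untreated Rescue (0.0527) or Rescue with TNF (0.0583). Its Rescue against KO call was lost without KO with TNF (log2 0.11, adjusted p = 0.971), untreated Rescue (0.223) or Rescue with TNF (0.353), and in the second quantification (0.136). With the labels' groups it pointed the other way in both comparisons and did not pass.

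Under TNF alone, 1 library against 1, 5 of 10 members were at least 2-fold lower in KO than in WT, where 10.1% of all genes were. They were Tnip3 at 0.0758 of WT (0.0534 to 0.0980), Tnfaip3 at 0.147 (0.137 to 0.156), Tnip1 at 0.249 (0.236 to 0.263), Tnfaip2 at 0.281 (0.272 to 0.290) and Traf1 at 0.331. Traf5 was higher in KO, 1.56-fold (1.34 to 1.84).

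Rescue against WT called 0 of the 10 members in edgeR and in DESeq2, with 1 (Tnip3) at an unadjusted p under 0.05 in edgeR, where 12.5% of all genes were called higher and 12.1% lower. Tnip3 differed by -1.17 ± 0.37 (log2, edgeR adjusted p = 0.077). Without untreated KO, or without KO with TNF, 4 members were called lower in Rescue, and 1 was called without untreated WT. In the TNF libraries the members fell apart into those that came back to the WT level and those that did not. Traf1 in Rescue with TNF was 0.968 of WT with TNF (0.896 to 1.04) and Traf3 was 1.04 of it (0.989 to 1.10). Tnfaip3 was at 0.402 (0.385 to 0.419), Tnip3 at 0.401 (0.345 to 0.460), Tnfaip2 at 0.497 (0.485 to 0.510) and Tnip1 at 0.683 (0.658 to 0.709). These are values of single libraries with counting error only.

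With TNF, most reads at the start of Tnip1 came from another first exon than without it. This was found after the values had been seen, in the deposited reads per splice junction, and carries no test. Annotated Tnip1 transcripts (GENCODE vM21, GRCm38), apart from 1 that begins far inside the gene, begin either at an upstream first exon ending at 54962833 on chromosome 11, just downstream of the promoter printed above, or at downstream first exons ending at 54956021 and 54955848. Reads leaving the upstream first exon for the next exons numbered 4 in untreated WT, 11 in untreated KO and 0 in untreated Rescue, and 317, 54 and 215 with TNF. Reads leaving the downstream first exons numbered 41, 25 and 36 without TNF and 35, 28 and 24 with it. The upstream reads were thus high in the TNF libraries and lowest among these in KO, while the downstream reads stayed within 24 to 41 in all 6 libraries.

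As a share of both, the upstream first exon gave 8.9% of reads in untreated WT (95% exact binomial interval 2.5 to 21.2), 30.6% in untreated KO (16.3 to 48.1) and 0% in untreated Rescue (up to 9.7). With TNF it gave 90.1% in WT (86.4 to 93.0), 65.9% in KO (54.6 to 76.0) and 90.0% in Rescue (85.4 to 93.5). The intervals of untreated and treated libraries did not overlap in any line, and that of KO with TNF lay below those of the other treated libraries. They cover counting error only, since reads without molecular identifiers are not independent molecules.

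**Figure D3:**
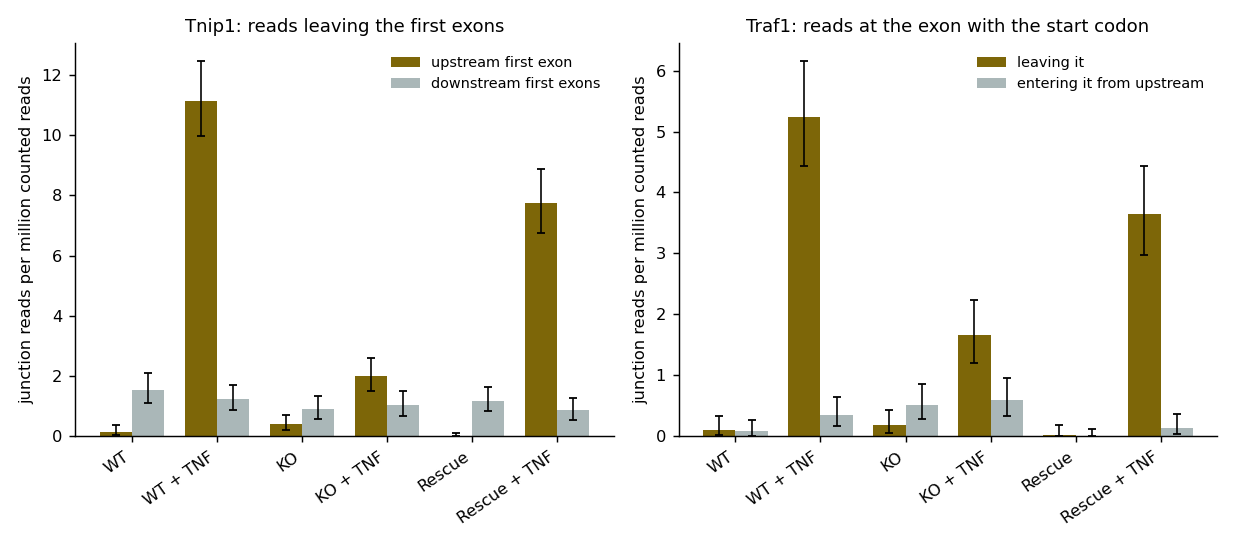
Junction reads in each library, scaled to library size as CPM, bars with 95% counting intervals, for Tnip1 (left, reads leaving the upstream or the downstream first exons) and Traf1 (right, reads leaving the exon with the start codon and reads entering it from upstream). Upstream Tnip1 reads reach 11.15 in WT with TNF, 2.00 in KO with TNF and 7.76 in Rescue with TNF, and downstream reads stay between 0.87 and 1.55.

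An exon further in, which holds the start codon of 5 of the 8 Tnip1 transcripts with an annotated coding start, had a lower psi with TNF in each line. It is 172 bases long, at chr11:54940711-54940882, with its coding start at 54940846, and in the 3 coding transcripts that lack it coding is annotated to start at 54939712 in the next exon. Its coding part, shown because skipping removes this start codon (in capitals), lies at chr11:54940711-54940846 on the minus strand (GRCm38).
Tnip1 coding part: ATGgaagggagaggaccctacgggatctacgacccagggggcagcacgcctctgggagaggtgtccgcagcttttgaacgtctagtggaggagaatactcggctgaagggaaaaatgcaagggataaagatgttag
The deposited psi of this exon, the fraction of messengers that include it, was 0.932 in untreated WT (deposited interval 0.878 to 0.961), 0.756 in untreated KO (0.669 to 0.823) and 0.794 in untreated Rescue (0.714 to 0.854). With TNF it was 0.620 in WT (0.586 to 0.652), 0.692 in KO (0.624 to 0.752) and 0.556 in Rescue (0.513 to 0.598). In WT and in Rescue the treated and untreated intervals were apart, and in KO they overlapped.

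**Figure D4:**
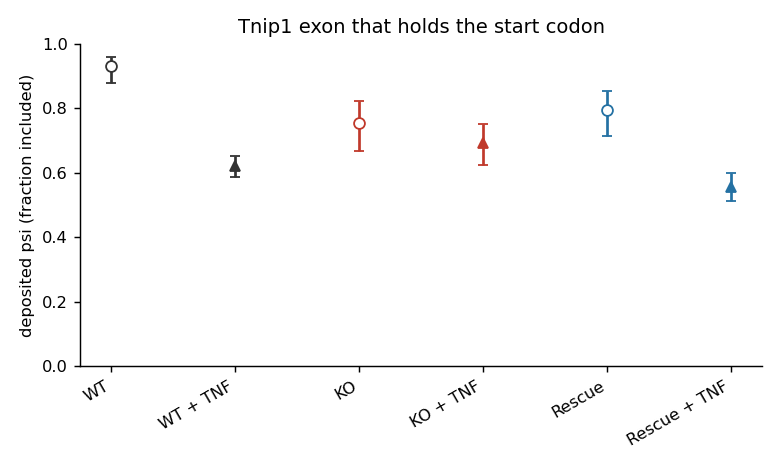
Deposited psi of the Tnip1 exon with the start codon in each library, with the deposited interval as bars, open circles untreated and filled triangles with TNF. Untreated and treated values are 0.932 and 0.620 in WT and 0.794 and 0.556 in Rescue, with separate intervals, and 0.756 and 0.692 in KO, with overlapping ones.

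Inclusion was also compared by where the messenger began. Of reads from the upstream first exon, 59.3% entered the exon in WT with TNF (188 of 317, interval 53.7 to 64.8), 66.7% in KO with TNF (52.5 to 78.9) and 54.9% in Rescue with TNF (48.0 to 61.7). Reads from the downstream first exons entered it in 80.0% (63.1 to 91.6), 67.9% (47.6 to 84.1) and 79.2% (57.8 to 92.9) of cases in the same libraries, and in 95.1% (83.5 to 99.4), 84.0% (63.9 to 95.5) and 72.2% (54.8 to 85.8) in untreated WT, KO and Rescue. In WT and in Rescue with TNF the share was lower for reads from the upstream first exon, and in KO with TNF the shares lay close to each other. The difference by first exon was not tested.

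Traf1 showed an unequal balance of junction reads at the exon with its start codon, which ends at position 34957959 of chromosome 2. Reads leaving this exon numbered 3, 5 and 1 in untreated WT, KO and Rescue and 149, 45 and 101 with TNF. Reads entering it from upstream exons numbered 2, 14 and 0 without TNF and 10, 16 and 4 with it. With TNF the exon was therefore left far more often than it was entered, whereas in untreated KO it was entered at least as often as it was left. GENCODE vM21 annotates transcripts that start inside this exon, between positions 34958136 and 34958163, and the RefSeq promoter searched above lies far upstream, next to a first exon that gave 0 to 8 reads per library. The absence of a match there hence concerns a start that few of these reads used. How library preparation treats the ends of messengers was not tested.

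For Tnfaip3 the reads leaving the first exon behind the printed promoter numbered 40, 34 and 43 in untreated WT, KO and Rescue and 494, 70 and 197 with TNF. A second annotated first exon gave 6, 5 and 1 reads without TNF and 57, 12 and 18 with it. Both starts gave the most reads in WT with TNF and the next most in Rescue with TNF. Traf3 reads from its outermost first exon numbered 6, 7 and 13 without TNF and 33, 17 and 49 with it.

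Internal splicing of the members differed little between libraries outside Tnip1 where reads were many. Of 65 splice nodes (cassette exon, alternative acceptor, alternative donor or retained intron parts) in 8 genes with at least 20 reads in every library, 56 spanned less than 0.05 in psi. Only 2 spanned 0.2 or more, both in Tnip1. They were the exon above and an alternative end of the downstream first exon (chr11:54955848-54956020). The latter had a psi of 0.462 in untreated WT and 0.0173 to 0.102 in the other 5 libraries. The reads counted for it, 45 in untreated WT and 354 in WT with TNF, exceeded those from the downstream first exons. Reads leaving the end at 54955848 numbered 9, 1 and 5 in untreated WT, KO and Rescue and 6, 6 and 4 with TNF. The end at 54956021 gave 32, 24 and 31 reads without TNF and 29, 22 and 20 with it. This psi is thus no clean measure of the choice between these ends, which was not tested. No node set both libraries of 1 line apart from the other 4 by 0.1 or more. Smaller differences between lines were not tested. No node of Traf1 or Tnip3 was among those counted, so these genes were not assessed. With at least 50 reads required, 47 nodes remained and 1 spanned 0.2 or more. With at least 10 reads, 69 nodes were counted and 3 spanned it, the added one being a Traf3 node with psi of 0.216 to 0.418 and widely overlapping intervals.

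Other genes of the receptor complex and of ubiquitin editing were followed as a list of 39, of which 38 were tested. With TNF 7 rose and 0 fell by edgeR, where 11.2% of all genes rose and 10.8% fell, with a median log2 fold change of 0.17 against -0.01 for all genes. Among the 7 called, the largest rise was that of Birc3, a ubiquitin ligase that binds Traf2 (1.95 ± 0.23, adjusted p = 0.0116). Next came Spata2, which tethers Cyld (0.51 ± 0.10, adjusted p = 0.0292), and Rnf31, the catalytic subunit of the linear ubiquitin ligase (0.49 ± 0.12, adjusted p = 0.042). The deubiquitinase Cyld (0.37 ± 0.08, adjusted p = 0.035) and the kinase Tbk1 (0.36 ± 0.09, adjusted p = 0.0446) followed. Ikbke (1.22), Tank (0.68), Birc2 (0.62) and Tifa (0.58) had larger values than Spata2 but were not called. Birc3, like Tnfaip3, had its highest level in WT with TNF, with 11.03, 2.66 and 5.86 TPM in untreated WT, KO and Rescue and 52.4, 5.64 and 23.4 TPM with TNF.

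Between KO and WT, 2 of the 38 genes were higher and 7 lower, where 16.8% of all genes were higher and 16.2% lower, so the counts were below or near the background. Ripk1, the kinase that carries ubiquitin chains at the receptor, was lower by -1.38 ± 0.10 (log2, edgeR adjusted p = 0.00277), at 26.2 and 26.1 TPM in WT, 11.1 and 9.04 TPM in KO and 31.3 and 28.4 TPM in Rescue, without and with TNF. The KO libraries lay below all WT and Rescue libraries, a separation whose share over all genes was not counted. Rescue exceeded KO by 1.48 ± 0.10 (adjusted p = 0.00494), and Rescue against WT, at 0.09 ± 0.10, did not pass. Birc3 was lower in KO by -2.70 ± 0.30 (adjusted p = 0.00556), the A20 partner Tnip2 by -0.66 ± 0.11 (adjusted p = 0.0124) and Traf3ip2 by -0.64 ± 0.11 (adjusted p = 0.0141). Tbkbp1, with 0 to 23 counts per library, was called lower at the edge of detection. Higher in KO were Traip (1.54 ± 0.19, adjusted p = 0.00679) and Traf7 (0.27 ± 0.07, adjusted p = 0.0327).

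Rescue against KO had 3 of the 38 higher (Birc3, Ripk1 and Traf3ip2) and 4 lower: Tnfrsf1b (-0.78 ± 0.17, adjusted p = 0.039), Cyld (-0.55 ± 0.10, adjusted p = 0.0265), Azi2 (-0.46 ± 0.11, adjusted p = 0.0477) and the TNF receptor gene Tnfrsf1a (-0.32 ± 0.07, adjusted p = 0.0385). Both counts were near the background of 9.79% higher and 10.6% lower. Against WT, where the background was 12.5% higher and 12.1% lower, Rescue had 2 higher (Traip and Ube2n) and 6 lower, led by Tbkbp1, Birc3 (-1.15 ± 0.27, adjusted p = 0.0376) and Tnfrsf1b (-0.66 ± 0.17, adjusted p = 0.0482). In the TNF response of KO 1 gene differed: Ikbke, an NF-kB-inducible kinase, at 12.2, 7.56 and 9.24 TPM in untreated WT, KO and Rescue and 38.8, 7.85 and 26.6 TPM with TNF (-1.56 ± 0.20, edgeR adjusted p = 0.00784).

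Across the 6 libraries the members that TNF raised ran close together, which is a description of log2 CPM values that share libraries and the TNF step. Tnfaip3, Tnip1, Tnip3 and Tnfaip2 went together with Pearson r of 0.97 to 0.99. Traf1 and Traf3 paired at 0.99 and stood at 0.88 to 0.97 with those 4. Traf2, which was not called with TNF, also ran close to these 6, at 0.91 to 0.96. Traf5 ran apart from these 6, at -0.27 to 0.00. The 5 genes of the whole table most like Tnfaip3 were Cp, Hspb8, Rela, Stab1 and Ttc39c, with r from 0.993 to 0.996 among 12718 genes. Rela, the NF-kB subunit, ran from 79.5 CPM in untreated Rescue to 106 in KO with TNF, 148 in Rescue with TNF and 212 in WT with TNF. Those most like Tnip1 were Spib, Irg1, Slamf8, Nos2 and Pgm2, of which Irg1 had 0 CPM in all 3 untreated libraries and 45.2, 0.20 and 8.08 CPM in WT, KO and Rescue with TNF.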

How the data were processed

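For each of 6 libraries the authors deposited expected counts and TPM per gene from RSEM, which the submitters' processing notes name. Those of untreated KO were given per transcript and were summed here. A second quantification gives deposited estimated counts per gene, psi as a fraction per splice node and reads per junction, per the file headers. The sources used here give no aligner, build or versions; 88 of 95 member nodes share an exon edge with GENCODE vM21 (GRCm38). Counts in a row without a gene name (0.0735% to 0.0927%) were left out.

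Expected counts were rounded and tested with edgeR 4.0.16 (R 4.3.3): TMM factors, filterByExpr, quasi-likelihood test, additive model of line and TNF (2 residual degrees of freedom) or with a KO TNF term (1). The script was tested on simulated data. Levels are TPM or TMM-scaled CPM. Single-library ratios used a prior count of 2. Their intervals were exact binomial intervals on the counts, without the prior. Intervals of CPM levels were exact Poisson intervals. Alternatives were the labels' groups, RLE factors, DESeq2 1.42.0, no filter, the second quantification, each library left out, a prior count of 0.5 and node minimums of 10 and 50 reads. All 10 members were named; of the pathway list those past the threshold, at most 5 per direction; and the 5 genes most like Tnfaip3 and Tnip1 by Pearson r. Members and lists were chosen with earlier results of these data known. The first-exon reads were added after the values had been seen. Transcript values from the second quantification stayed unused.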

Additional observations from a re-analysis of the deposited data

Results flagged for a closer look

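The TNF response of 4 genes differed between KO and the other lines in a test of that difference, edgeR's quasi-likelihood test of the KO TNF term. The term was -2.84 for Traf1 (adjusted p = 0.00157), -1.63 for Tnip1 (adjusted p = 0.00458), -1.70 for Tnfaip3 (adjusted p = 0.0334) and -1.22 for Tnfaip2 (adjusted p = 0.0454), on the log2 scale, and the response was lower in KO than in both other lines for all 4. The test treats WT and Rescue as replicates of each other. No group had enough libraries for a check of single libraries that stand apart.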

How the results depend on the processing

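With the labels' groups no gene and no member was called in any of the 5 comparisons (0 in each), the member medians within lines were 0.50 in WT and -1.83 in KO, and these log2 values turned sign: with TNF Traf2 -0.04, Traf6 -0.01 and Tnip1 -0.01; KO against WT Traf6 0.27, Tnfaip3 2.16, Tnip3 5.44 and Tnfaip2 1.45; Rescue against KO Traf6 -0.10 and Tnip3 -3.54; Rescue against WT Tnip3 1.89; KO TNF term Traf5 -0.10 and Tradd -0.16. The cause was not tested.

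Leaving out each library in turn gave 3 to 3741 genes and 0 to 7 members with TNF (2803 and 6 with all libraries), 1073 to 4054 genes and 0 to 8 members for KO against WT (4203 and 1), 0 to 2683 and 0 to 8 for Rescue against KO (2601 and 1), and 0 to 4579 and 0 to 4 for Rescue against WT (3129 and 0). In these fits Traf5 with TNF ran from -0.20 to 0.32, Traf6 from -0.05 to 0.10, Tradd from -0.04 to 0.16 and Tnip3 in Rescue against WT from -1.37 to 0.46. Each such fit leaves 1 residual degree of freedom, and the line that lost a library rests on its other library alone.

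For the KO TNF term 225 genes were called, 115 with RLE factors, 134 with DESeq2 and 20 in the second quantification, with 4, 2, 4 and 1 members. KO against WT called 2 members without a filter, Rescue against KO 0 in the second quantification, and 1 splice node spanned 0.2 at a minimum of 50 reads. Under RLE factors, DESeq2, no filter and the second quantification, 0 of the 12 called member values turned sign. Prior count 0.5 moved no median beyond its counting interval. Depth limits Tnip3 and untreated Traf1, with 3 to 80 counts, and Tnip1 junction reads in untreated libraries.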
